A study of Mus musculus with 20 samples.

Results

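Neurons keep part of their RNA away from the cell body, in dendrites and in the synaptic tissue between cell bodies, the neuropil. The 9 genes described here, Bc1, Ddn, Camk2a, Camk2n1, Nrgn, Map2, Shank1, Dlgap3 and Cnih2, give transcripts that are known from dendrites or code for proteins of dendrites and postsynapses, and all 9 were found by symbol among the 31053 genes counted in single-cell libraries of the mouse basolateral amygdala (BLA). They were chosen from earlier results on these counts, for their levels in neurons, in barcodes rich in mitochondrial reads and in 1 library that stood apart, so values in those comparisons are descriptions without a test. The treatment comparisons and the comparison of excitatory with inhibitory neurons were not the contrasts used for the choice, and were tested. They are not fully independent of it. The library that stood apart is 1 of the 2 in its treatment group, and 1155 of the 1432 neurons were excitatory.

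The study asked how chronic stress hormone and ketamine change brain cells. Male wild-type C57BL/6 mice, 13 weeks old, drank corticosterone (CORT, 35 µg/ml) or its vehicle 2-hydroxypropyl cyclodextrin (BCD) for 6 weeks, received ketamine at 10 mg/kg (Ket) or saline (Sal), and were killed 24 h later. The BLA was dissociated with enzymes and captured on the 10x Chromium platform, with 1 library from each mouse. Ketamine was given after BCD to mice 9946, 9949 and 9986 (BCD/Ket) and after CORT to 9967, 9968 and 9971 (CORT/Ket), and saline after BCD to 9901 and 9947 (BCD/Sal) and after CORT to 9969 and 9970 (CORT/Sal). Values of single libraries are given in this order of mice. The tissue field names the BLA, although the extraction text of the same samples speaks of prefrontal cortex. The 10 prefrontal samples were not analysed here.

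A dendritic transcript is packed into a granule with RNA-binding proteins, carried along microtubules and translated near synapses. Bc1 is a short noncoding RNA made by RNA polymerase III, which is carried into dendrites and holds back translation. Camk2a codes for the alpha subunit of the calcium/calmodulin-dependent kinase II, Camk2n1 for an inhibitor of that kinase and Nrgn for neurogranin, a postsynaptic protein that binds calmodulin. Ddn codes for dendrin, a postsynaptic protein, and Map2 for the microtubule-associated protein that marks dendrites. Shank1 and Dlgap3 code for scaffolds of the postsynaptic density, and Cnih2 for an auxiliary subunit of AMPA receptors.

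Bc1 is the only noncoding member and the only 1 short enough to be read whole, so its sequence is shown. It lies on chromosome 7 of NCBIM37 (mm9), at chr7:152100375-152100528 on the plus strand, 154 bases from a start given by RefSeq. The capitals mark its A-rich stretch, bases 69 to 136, where 50 of 68 bases (73.5%) are A, against 65 of 154 (42.2%) over the whole RNA.
Bc1: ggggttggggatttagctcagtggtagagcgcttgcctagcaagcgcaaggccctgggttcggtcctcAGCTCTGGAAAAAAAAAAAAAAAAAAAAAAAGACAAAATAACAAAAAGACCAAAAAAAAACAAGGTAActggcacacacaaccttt
The whole sequence occurs once in the genome, but its first 68 bases, before the capitals, occur exactly at 15 places and its first 25 at 309, whereas its last 30 are unique. Reads that cover the 5′ part alone cannot be assigned to Bc1 with certainty. A gene annotated as a miRNA lies over Bc1 on the same strand.

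The other members are protein-coding genes with spans between 4144 bases (Ddn, 15:98634213-98638356) and 267311 bases (Map2, 1:66221847-66489157) in GENCODE M1. Camk2n1 (4:138010229-138016038) and Dlgap3 (4:126846448-126914266) share chromosome 4, and Shank1 (7:51565623-51613721) is on chromosome 7 with Bc1. Nrgn lies at 9:37352078-37360330, Cnih2 at 19:5092871-5098418 and Camk2a on chromosome 18. Annotated noncoding genes overlap Ddn and Map2 on the opposite strand, and 2 small noncoding genes lie within Map2 on its own strand.

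Over the 10 libraries there were 28722 barcodes with 811628 to 7281768 UMIs (unique molecular identifiers) per library. Of these, 8305 were kept, with at most 1 in 8 UMIs from the 13 mitochondrial genes and at least 200 genes, among them 1432 neurons (1155 excitatory, 277 inhibitory) and 4445 barcodes of named non-neuronal classes. A further 17902 had over 25% mitochondrial UMIs, called high-mitochondrial barcodes below. Features of 4 libraries bear on the values. The CORT/Sal library of mouse 9970 had a median mitochondrial share of 3.22%, only 32 neurons (11745 UMIs), 19 non-neuronal and 22 high-mitochondrial barcodes, and 2346 kept barcodes in clusters that no marker list named. Libraries 9946, 9947 and 9967, 1 in each of 3 treatment groups, had under 10 kept microglia, as did 9970, where the other 6 had 118 to 170. Of the barcode sequences, 120 occurred in more than 1 library. Levels are given as CPM, the UMIs of a gene per 1000000 non-mitochondrial UMIs of a class in a library. Neurons carried excitatory markers at 6047 to 9307 CPM in the 9 libraries other than 9970, against 173 to 628 in non-neuronal barcodes. The clusters were named from these markers, so the values only describe the naming.

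All 9 members were higher in neurons than in the non-neuronal barcodes of the same library in all 10 libraries, as were 11.0% of the 13201 genes with at least 100 UMIs. The rule used this contrast, so nothing is read from the count. Without library 9970, whose non-neuronal sum held 5466 UMIs and listed 8 members at 0, the median log2 ratios ran from 1.99 (Map2) to 4.85 (Nrgn), with a list median of 3.36. The median of the 14 pan-neuronal mRNAs, genes such as Snap25 and Syt1 that most neurons use, was 4.76 on the same scale.

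Bc1 had the smallest ratio but for Map2. Its neuronal levels were 764, 259 and 86.0 CPM for BCD/Ket, 728, 184 and 139 for CORT/Ket, 210 and 779 for BCD/Sal and 81.3 and 596 for CORT/Sal. The value of 596 rests on 7 UMIs. Non-neuronal barcodes held 68.3, 63.7, 52.3, 93.6, 40.3, 75.5, 136, 61.6, 31.6 and 0 CPM in the same order, below the neurons of their own library each time. Between libraries the ranges overlapped, because the neurons of 9969 and 9986 were lower in Bc1 than the non-neuronal barcodes of 9901 and 9967.

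Map2, though a neuronal marker by name, was also read in glia. Oligodendrocyte precursor cells held 328 to 964 CPM (median 517, 6 libraries) and astrocytes 245 to 571 (median 326), where excitatory neurons held 389 to 1204 (median 756) and inhibitory neurons 513 to 1528 (median 846). These 4 ranges overlapped, and endothelial cells were lower at a median of 26.2 CPM (0 to 137, 10 libraries). Camk2n1 was the other member with a clear level outside neurons: astrocytes held 363 to 447 CPM, below the excitatory neurons (789 to 2831) and overlapping the inhibitory ones (386 to 1025). It was not confined to astrocytes, with medians of 276 in microglia, 218 in oligodendrocyte precursor cells and 195 in endothelial cells. Pericytes and mural cells had a median of 191 and oligodendrocytes 107.

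Camk2a and Nrgn were low in every named class outside neurons. Camk2a ran from 677 to 1415 CPM in excitatory neurons and from 366 to 871 in inhibitory neurons, and its medians in the classes outside neurons were at or under 113, the value in microglia. Nrgn ran from 660 to 3410 in excitatory neurons, and its highest median in a non-neuronal class was 108, in pericytes and mural cells. Shank1 had a median of 328 in excitatory neurons, 280 in inhibitory neurons and 86.0 in oligodendrocyte precursor cells, and 18.4 over all non-neuronal barcodes. Ddn (153 in excitatory neurons), Dlgap3 (111) and Cnih2 (105) were read from few UMIs, 253 to 405 over all excitatory neurons.

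Barcodes with more UMIs show more genes, so shares of cells were compared at 500 UMIs drawn per barcode, shallower barcodes left out. Drawing does not remove free RNA, which gives UMIs in cells that do not express a gene. In endothelial cells, 2.94% of 987 barcodes held a Bc1 UMI (9.75% of all 1097 before drawing). Whether these UMIs were free RNA was not tested. Bc1 was held by 13.3% of 1083 excitatory neurons (29.9% of all 1155 before) and 14.3% of 273 inhibitory neurons (41.5% of all 277 before). The median barcode held 1269, 1356 and 1944 non-mitochondrial UMIs in these classes. Camk2a was found in 40.7% of excitatory, 22.0% of inhibitory and 2.74% of endothelial barcodes. For Camk2n1 these shares were 33.8%, 23.4% and 8.41%. At least 3 of the 9 members were present in 28.2% of excitatory, 15.0% of inhibitory and 0.405% of endothelial barcodes. These shares belong to the contrast that chose the members and are given as a description.

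**Figure D1:**
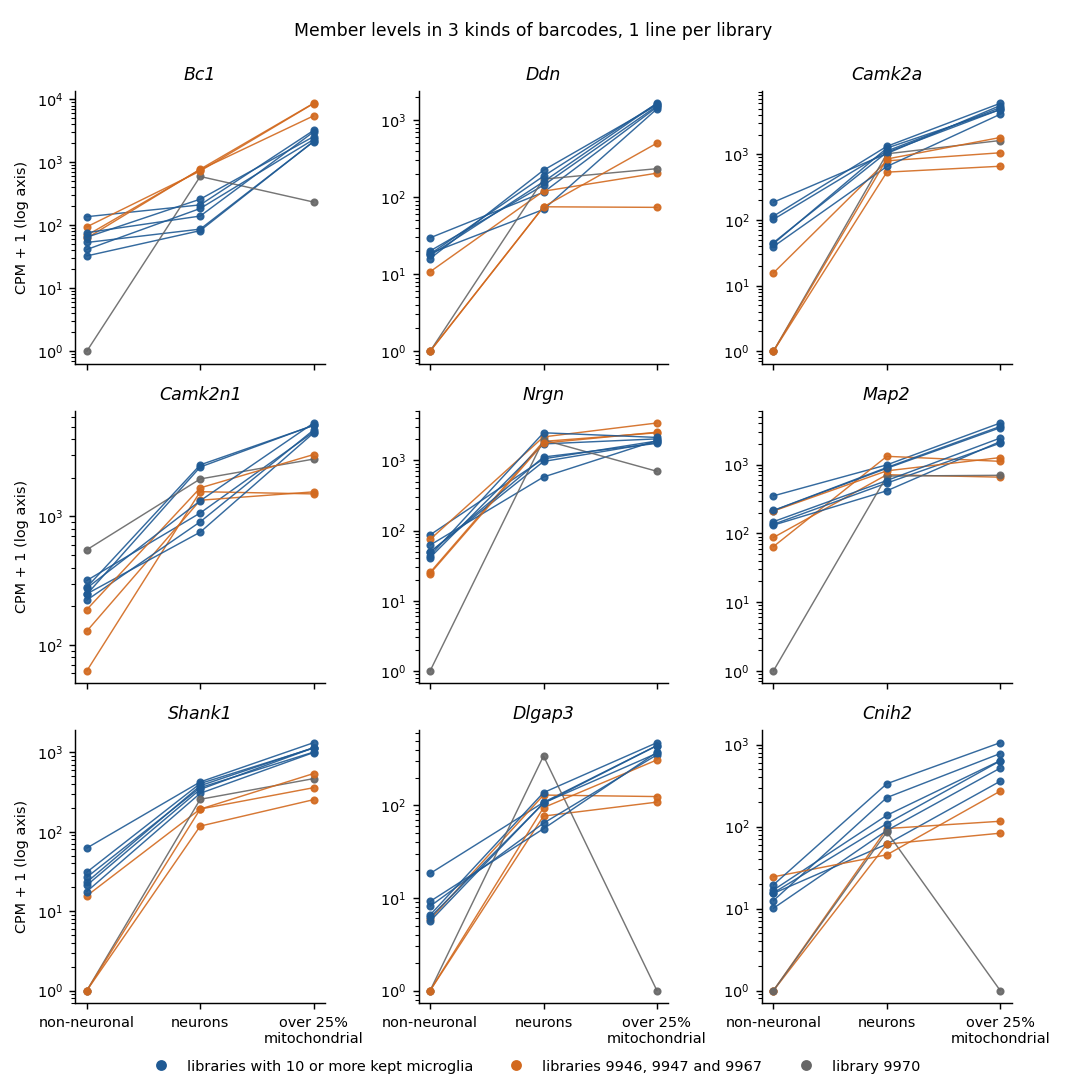
Level of each member (CPM plus 1, log axis) in non-neuronal barcodes, neurons and barcodes with over 25% mitochondrial UMIs, 1 line per library. Blue lines are the 6 libraries with at least 10 kept microglia, orange lines 9946, 9947 and 9967, and the grey line 9970; Bc1 rises in the last step in every library except 9970, and the orange lines end above the blue ones for Bc1 and below them for Ddn and Camk2a.

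High-mitochondrial barcodes, which the usual quality filter discards, held more of these transcripts, relative to their other RNA, than neurons did. Over all 10 libraries the median log2 ratio to the neurons of the same library was above 0 for all 9 members, from 0.58 (Nrgn) to 3.60 (Bc1), with a list median of 1.95. Camk2a and Shank1 were higher in all 10 libraries, a pattern shown by 1.32% of the 13201 genes. The median over all those genes was −0.27, and without library 9970 the median ratio was above 0 for 4685 of them. These are the values on which the members were chosen.

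Bc1 was the most raised member. In high-mitochondrial barcodes it reached 5486, 2567 and 2134 CPM for BCD/Ket, 8616, 2309 and 3050 for CORT/Ket, 3220 and 8684 for BCD/Sal and 2155 and 233 for CORT/Sal. The 233 of mouse 9970 was 1 UMI, and the other 9 libraries, with 1340 to 5448 UMIs each, were all above every neuronal value of Bc1. Their log2 ratios to neurons ran from 2.84 to 4.71 (median 3.64).

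Ddn gave 204, 1395 and 1524 CPM for BCD/Ket, 502, 1652 and 1641 for CORT/Ket, 1474 and 72.7 for BCD/Sal and 1567 and 233 for CORT/Sal. The 233 of mouse 9970 came from a sum of only 4289 UMIs. The 6 libraries with at least 10 microglia lay close together, between 1395 and 1652, whereas 9946, 9947 and 9967 held 72.7 to 502 and did not overlap them. In the neurons of mouse 9947 Ddn stood at 73.9 CPM, so that library had no rise.

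Camk2a showed the same separation. Its levels were 1060, 4102 and 5179 CPM for BCD/Ket, 1813, 4853 and 6030 for CORT/Ket, 5570 and 660 for BCD/Sal and 4844 and 1632 for CORT/Sal. The median log2 ratio to neurons was 2.19 in the 6 libraries and 0.41 in 9946, 9947 and 9967, and the ratio was above 0 in each of these 9.

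The inhibitor of the same kinase, Camk2n1, had 1554, 4717 and 4472 CPM for BCD/Ket, 3035, 5119 and 5349 for CORT/Ket, 4548 and 1497 for BCD/Sal and 5138 and 2798 for CORT/Sal. Its log2 ratio to neurons was 1.08 (median over the 9 libraries other than 9970), with a range from −0.06 to 2.57. Nrgn was the least raised member: its 9 levels between 1749 and 3418 CPM gave log2 ratios from −0.22 to 1.73. In neurons Camk2n1 and Nrgn had medians of 1448 and 1743 CPM.

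Map2 reached 2055 to 4039 CPM in the 6 libraries and 657 to 1267 in 9946, 9947 and 9967, with median log2 ratios of 2.00 and −0.12. Shank1 reached 995 to 1324 in the 6 and 253 to 540 in the 3, and its log2 ratio stayed between 0.89 and 1.74 in all 9. The Dlgap3 level was 350 to 475 in the 6 and 107 to 309 in the 3, and that of Cnih2 357 to 1056 and 82.1 to 270. The 6 libraries were thus lower without overlap for Bc1 (2134 to 3220 against 5486 to 8684) and Nrgn (1749 to 2127 against 2478 to 3418). For the other members they were higher without overlap. How many of all genes separate these libraries was not counted, so nothing is read from the number of members that do.

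In neurons, of the members only Bc1 and Shank1 separated these sets of libraries, again without a count over all genes. Bc1 was lower in the 6 (81.3 to 259 CPM) than in the 3 (728 to 779) and Shank1 higher (304 to 424 against 117 to 192). The 3 libraries belong to 3 different treatment groups, so the split is not a treatment contrast, and neither the labels nor the study's methods name a batch. The part that tissue, dissection or library preparation played in the split was not tested.

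Without library 9970, Bc1, Camk2a, Shank1 and Cnih2 were higher in the high-mitochondrial barcodes in all 9 libraries, against 4.55% of genes. In the 6 libraries with at least 10 microglia this held for 8 members, against 16.8% of genes, and Nrgn was the exception with 5 of 6. Their list median was 2.05, and that of 9946, 9947 and 9967 was 0.50. Scaled to all UMIs, mitochondrial ones included, only Bc1 was higher in all 9 libraries (1.23% of genes), with Camk2a higher in 6 and Shank1 and Cnih2 in 7. The list median over the 9 libraries was then 1.02 and the median of Nrgn −0.57, while the median of all genes moved from −0.31 to −1.21.

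The high-mitochondrial barcodes were not neurons alone. Their 24 excitatory markers summed to 4064 to 6157 CPM in the 9 libraries, against 6047 to 9307 in neurons, and their 12 astrocyte markers to 1336 to 13652, against 508 to 1575. The 12 oligodendrocyte markers summed to 2495 to 6618, against 125 to 546 in neurons. In every library the median of these barcodes was also below that of the neurons in non-mitochondrial UMIs. It ran from 191.5 to 716 per library (483 over all of them), against 343 to 3649 in neurons. In library 9970, the 7 choroid plexus markers of the high-mitochondrial barcodes summed to 116111 CPM, against 119 to 6786 in the 9 libraries. The part that this mixture and depth played in the ratios was not tested.

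The 3 lists of comparison genes moved differently. Without library 9970, 4685 of the 13201 genes had a median ratio above 0, and the counts above 0 in these lists were the same as over all 10. Of 28 partners of the postsynapse and dendrite, 15 had a median ratio above 0 (list median 0.34), and 3 were higher in all 10 libraries: Kif5a (3.36), a kinesin motor, Map1a (2.25), a dendritic microtubule protein, and the scaffold Shank2 (0.63). Ppp1r9b (3.52), which codes for spinophilin, and Psd (2.46) had high medians without holding in every library, whereas the kinase subunit Camk2d (−1.18) and the scaffold Homer1 (−0.70) were lower. Of 14 pan-neuronal mRNAs 3 were above 0 (list median −0.47), and 5 were lower in all 10 libraries (6.33% of genes), among them the synaptic vesicle genes Syp (−1.28) and Syt1 (−1.23) and Snap25 (−0.81), a protein of vesicle fusion. Of 6 nuclear long noncoding RNAs 5 were below 0, from Malat1 (−2.01) to Snhg11 (−2.50), and Neat1 (2.05) was above.

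**Figure D2:**
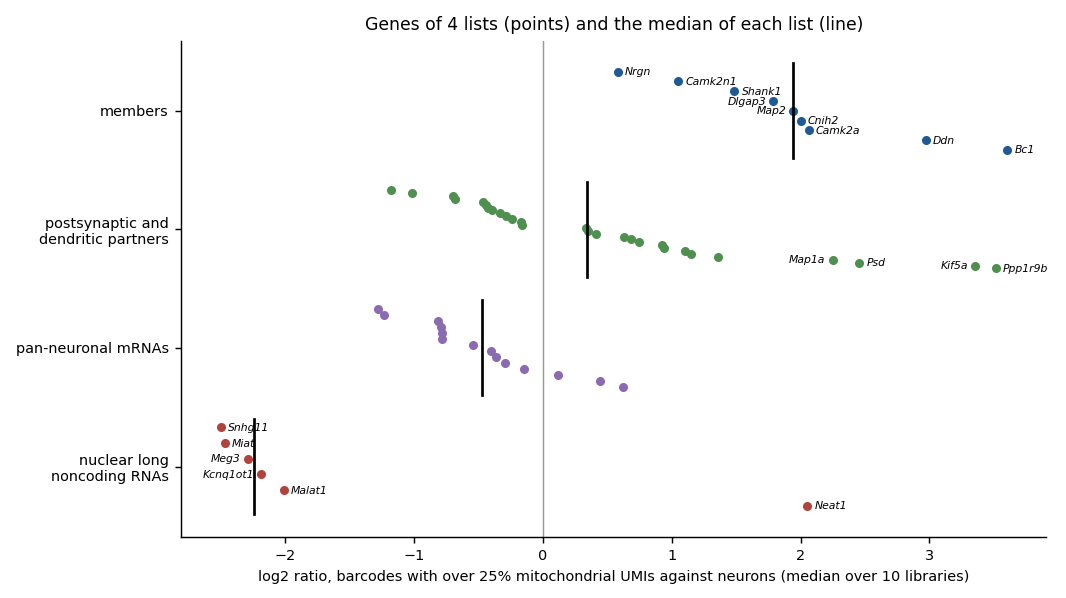
Median log2 ratio over 10 libraries (horizontal axis) of the high-mitochondrial barcodes to the neurons of the same library, 1 point per gene, with the median of each list as a vertical line. The 9 members lie between 0.58 and 3.60, the partners spread from −1.18 to 3.52, and all nuclear long noncoding RNAs but Neat1 lie at −2.01 or lower.

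From the kept limit to the range of 40 to 60% the median level of every member rose with the mitochondrial share itself, whereas Map2, Shank1 and Dlgap3 were slightly lower just inside the limit than at shares up to 5%. Over all barcodes of the 6 libraries, the median level of Bc1 was 49.6 CPM at shares up to 5%, 71.2 from there to the kept limit of 1 in 8, 327 from the limit to 25%, 1077 between 25 and 40%, 2567 between 40 and 60% and 4401 above 60%. Camk2a went from 269 in the lowest range to 6681 in the highest, and Ddn from 25.4 to 2164. At the limits of the rule, barcodes just inside the kept limit (above 5%) and just outside it (up to 25%) held 325 and 843 CPM of Camk2a and 375 and 453 of Nrgn. The Nrgn level peaked at 1979 between 40 and 60% and was 1603 above, and Map2 likewise went from 3259 to 2952. The ranges within the limit mix glia, vessel cells and neurons, and barcodes above it were not sorted into classes. The part that the kinds of barcode played in the rise was not tested.

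**Figure D3:**
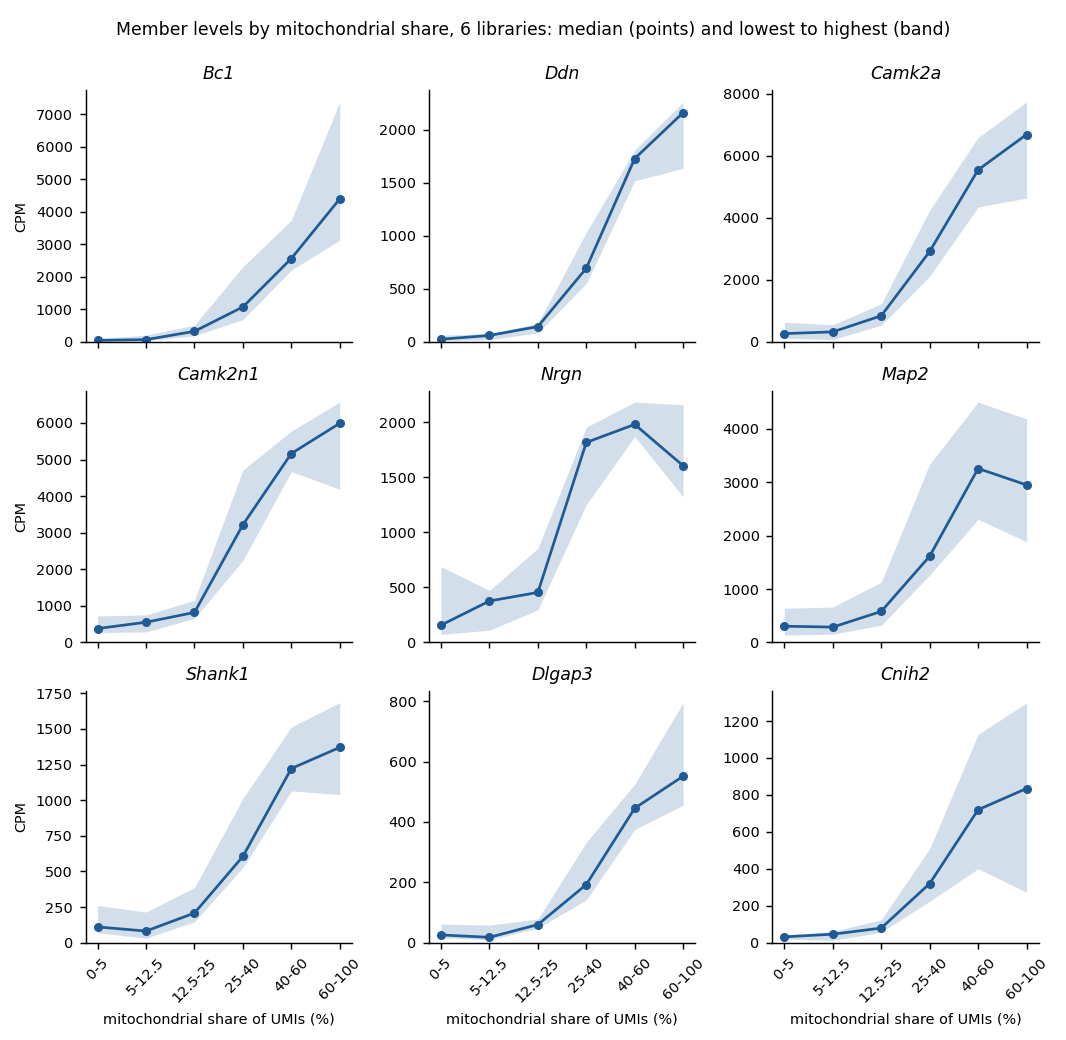
Level of each member (CPM) in barcodes grouped by mitochondrial share (percent of UMIs), as the median of the 6 libraries with at least 10 kept microglia (points) and their lowest to highest value (band). All members are low up to the kept limit and climb steeply above 25%; Nrgn and Map2 are lower in the last range than in the one before.

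Single barcodes often held several of these transcripts. After drawing 500 UMIs, 59.6% of 8556 high-mitochondrial barcodes held Bc1 (64.4% of all 17902 before drawing), 79.0% Camk2a, 77.2% Camk2n1, 66.9% Map2, 57.3% Nrgn, 45.7% Ddn, 38.5% Shank1, 25.7% Cnih2 and 17.0% Dlgap3. At least 3 members were found in 86.9%, against 28.2% of excitatory neurons. The 9346 high-mitochondrial barcodes with fewer UMIs were left out of these shares.

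Library 9970 held several members at levels above those of the neurons of other libraries, at a low mitochondrial share. Over all its barcodes it held 2827 CPM of Bc1, 733 of Ddn, 1731 of Camk2a, 1406 of Camk2n1, 1480 of Nrgn, 965 of Map2, 774 of Shank1, 323 of Dlgap3 and 629 of Cnih2. Over all barcodes of other libraries, Bc1 reached 3146 (mouse 9967), Ddn 854 (9968), Camk2a 2793 (9971), Camk2n1 2830 (9968), Nrgn 2514 (9947) and Map2 1904 (9901). Shank1, Dlgap3 and Cnih2 were at most 636 (9901), 228 (9949) and 558 (9968) there, under 9970. Against the neurons of the other 9 libraries the median log2 ratios were 3.74 for Bc1, 2.73 for Cnih2, 2.62 for Ddn, 1.62 for Dlgap3, 1.18 for Shank1, 0.75 for Camk2a, 0.25 for Map2, 0.07 for Camk2n1 and −0.22 for Nrgn. Higher than all 9 were 6 of the 9 members, against 17.6% of genes. In its unnamed cluster, 76.0% of 2346 barcodes held Bc1 and 83.8% at least 3 members after drawing 500 UMIs. The pan-neuronal mRNAs had a median ratio of −0.48. The hemoglobin genes summed to 7295 CPM over all its barcodes, within the range of the other libraries (1.51 in 9947 to 11310 in 9986). Mouse 9969 held 6957, and the neurons of 9970 alone held 1022. The other CORT/Sal library, of mouse 9969, had a median mitochondrial share of 46.3%, 131 microglia and 3 unnamed kept barcodes, so the profile was not shared within the treatment group.

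Excitatory and inhibitory neurons could be compared within 8 libraries that had at least 10 cells of each class (all but 9968 and 9970). Of the 9 members 8 could be tested, and 4 were higher in excitatory neurons: Nrgn, Camk2n1, Camk2a and Bc1. In this fit, edgeR's quasi-likelihood test on summed counts with the library as a block, 496 of 2723 genes passed an adjusted p of 0.05 (18.2%), 273 higher in excitatory neurons (10.0%) and 223 lower (8.19%). None of the 8 was lower. The members were chosen for their levels in neurons, of which 1155 of 1432 were excitatory. The count of members called is therefore not independent of the choice.

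Nrgn differed most. Its levels in excitatory neurons were 2555, 660 and 1059 CPM for BCD/Ket, 2862 and 1228 for CORT/Ket (mice 9967 and 9971), 1105 and 3410 for BCD/Sal and 1907 for CORT/Sal (mouse 9969), where the inhibitory neurons of the same mice held 676, 246, 290, 299, 81.9, 310, 961 and 361. All 8 libraries were higher in excitatory neurons, with a log2 fold change of 2.21 ± 0.19 (SE) and an adjusted p of 6.6e-11 in edgeR.

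Camk2n1 had 1708, 1033, 789, 2346, 1415, 1107, 2110 and 2709 CPM in the excitatory neurons of the same 8 mice and 690, 386, 498, 760, 471, 448, 1025 and 399 in the inhibitory ones. It was higher in 8 of 8 libraries, by 1.41 ± 0.17 on the log2 scale (SE; edgeR adjusted p = 1.5e-07). Camk2a, with 978, 677, 1163, 1126, 1415, 1063, 713 and 1336 against 487, 561, 871, 484, 532, 586, 366 and 627 CPM, was higher in 8 of 8 libraries by 0.89 ± 0.15 (SE; edgeR adjusted p = 4.4e-05).

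Bc1 was higher by 0.65 ± 0.21 on the log2 scale (SE; edgeR adjusted p = 0.025), with 932, 237, 80.6, 963, 141, 214, 999 and 89.9 CPM in excitatory and 473, 351, 124, 415, 123, 155, 565 and 19.0 in inhibitory neurons. It was higher in excitatory neurons in 6 of 8 libraries. The call depended on 9946, 9947 and 9967. Their inhibitory neurons held 35, 167 and 36 Bc1 UMIs. Those of 9901, 9949, 9986, 9971 and 9969 held only 9, 10, 6, 6 and 1. Without 9946, 9947 and 9967, a set chosen after seeing the data, the fold change was 0.07 with an edgeR adjusted p of 0.90. Leaving out any 1 of these 3 also ended the call (edgeR adjusted p = 0.11, 0.070 and 0.10). DESeq2 did not call it either (adjusted p = 0.14).

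Ddn (0.61 ± 0.29, SE; edgeR adjusted p = 0.15), Map2 (−0.27 ± 0.14; 0.19), Shank1 (0.25 ± 0.18; 0.36) and Dlgap3 (−0.07 ± 0.27; 0.89) did not pass. Cnih2, with 46 UMIs in inhibitory neurons, was under the filter on low counts. The median log2 fold change of the tested members was 0.63, and of all genes −0.01. Of the 23 tested partners 7 were higher and 2 lower in excitatory neurons. Calm2 (0.68) and Calm3 (0.61), which code for calmodulin, were among the former, as were Cnih3 (1.13) and Camk2d (0.92), and the lower ones were the scaffolds Homer2 (−0.87) and Dlgap2 (−0.72). Of the 14 pan-neuronal mRNAs 7 were higher, led by Stmn2 (1.52) and Nefl (1.45), and none was lower. Excitatory markers summed to 2069 to 5718 CPM in the inhibitory neurons of these libraries, and the inhibitory cluster included cells with Penk, a gene of striatal neurons. The part these played in the differences was not tested.

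**Figure D4:**
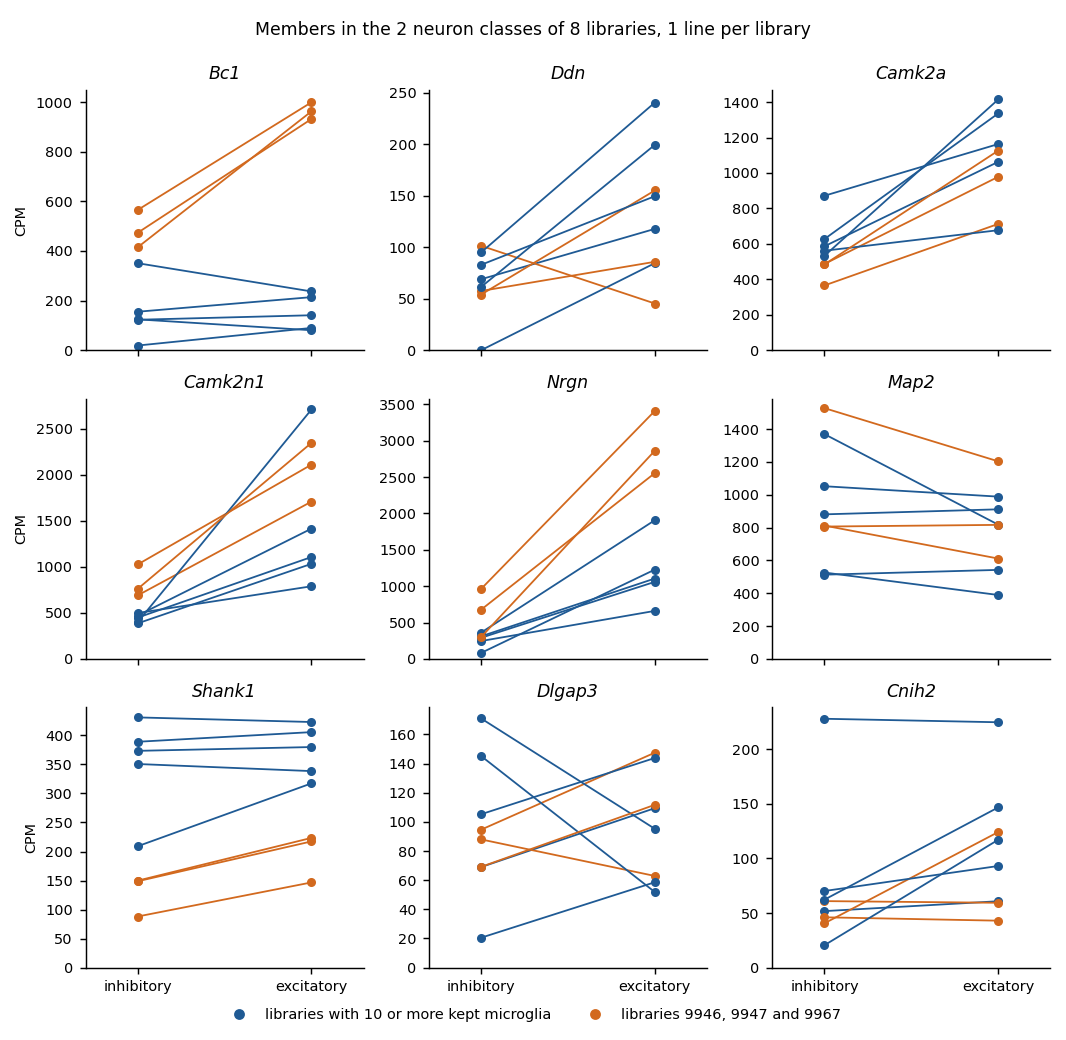
Level of each member (CPM) in the inhibitory and excitatory neurons of 8 libraries, 1 line per library, blue for libraries with at least 10 kept microglia and orange for 9946, 9947 and 9967. All lines rise for Camk2a, Camk2n1 and Nrgn, and for Bc1 the orange lines rise while 2 of the 5 blue ones fall.

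No member passed the threshold in a treatment contrast. In excitatory neurons of all 10 libraries, edgeR called 0 of 9 members and 0% of the 6593 genes tested in each of 5 contrasts. These were, in the order used from here, the effect of CORT under saline (CORT/Sal to BCD/Sal), that of ketamine after CORT, that of ketamine after BCD, that of CORT under ketamine (CORT/Ket to BCD/Ket), and the difference of both ketamine effects. With DESeq2 0 members were called as well. At an unadjusted p under 0.05 there were 210, 156, 52, 140 and 109 genes, with 2 members in the first contrast, Ddn and Cnih2, and 1 in the fourth, Camk2n1. Replicates were separate mice, with 2 in each saline group. Mouse 9970, whose library was used in the choice of the members, is 1 of the 2 in CORT/Sal. Contrasts with CORT/Sal are therefore not independent of that choice. The 4 hemoglobin genes summed to 17632, 37402 and 68215 CPM in the neurons of mice 9986, 9949 and 9968, all given ketamine, and to at most 1022 in the other 7, and their part in the ketamine contrasts was not tested. The members' median log2 fold changes were 0.21, 0.26, 0.07, 0.29 and 0.23, against −0.12, 0.09, 0.00, 0.00 and 0.12 over all genes.

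Ddn stood at 155, 84.6 and 150 CPM for BCD/Ket, 86.0, 183 and 200 for CORT/Ket, 118 and 45.4 for BCD/Sal and 241 and 174 for CORT/Sal in excitatory neurons. The CORT/Sal values were above both BCD/Sal values, with a log2 fold change of 1.26 ± 0.55 (SE), an unadjusted p of 0.029 and an edgeR adjusted p of 1.00. The 174 of mouse 9970 was 2 UMIs. Cnih2 stood at 124, 93.1 and 147 CPM for BCD/Ket, 43.0, 335 and 117 for CORT/Ket, 60.8 and 59.4 for BCD/Sal and 225 and 87.0 for CORT/Sal, and its log2 fold change for CORT/Sal was 1.58 ± 0.63 (SE; edgeR unadjusted p = 0.017, adjusted p = 1.00). The 87.0 of mouse 9970 was 1 UMI, and the lowest and highest values were both in CORT/Ket.

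Camk2n1 had a mean of 1177 ± 476 CPM for BCD/Ket (SD, n = 3), 2197 ± 720 for CORT/Ket (n = 3), 1608 ± 710 for BCD/Sal (n = 2) and 2355 ± 501 for CORT/Sal (n = 2). CORT/Ket exceeded BCD/Ket by 0.94 ± 0.46 on the log2 scale (SE; edgeR unadjusted p = 0.048, not called after adjustment), and the groups overlapped, since 1415 (mouse 9971) lay under the 1708 of mouse 9946. Bc1 varied the most relative to its mean, 416 ± 453 CPM for BCD/Ket, 419 ± 471 for CORT/Ket, 607 ± 555 for BCD/Sal and 349 ± 367 for CORT/Sal. Its SE for CORT/Sal against BCD/Sal was 1.85 around a log2 fold change of −1.95, so a change of several fold either way was not detectable with these libraries.

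**Figure D5:**
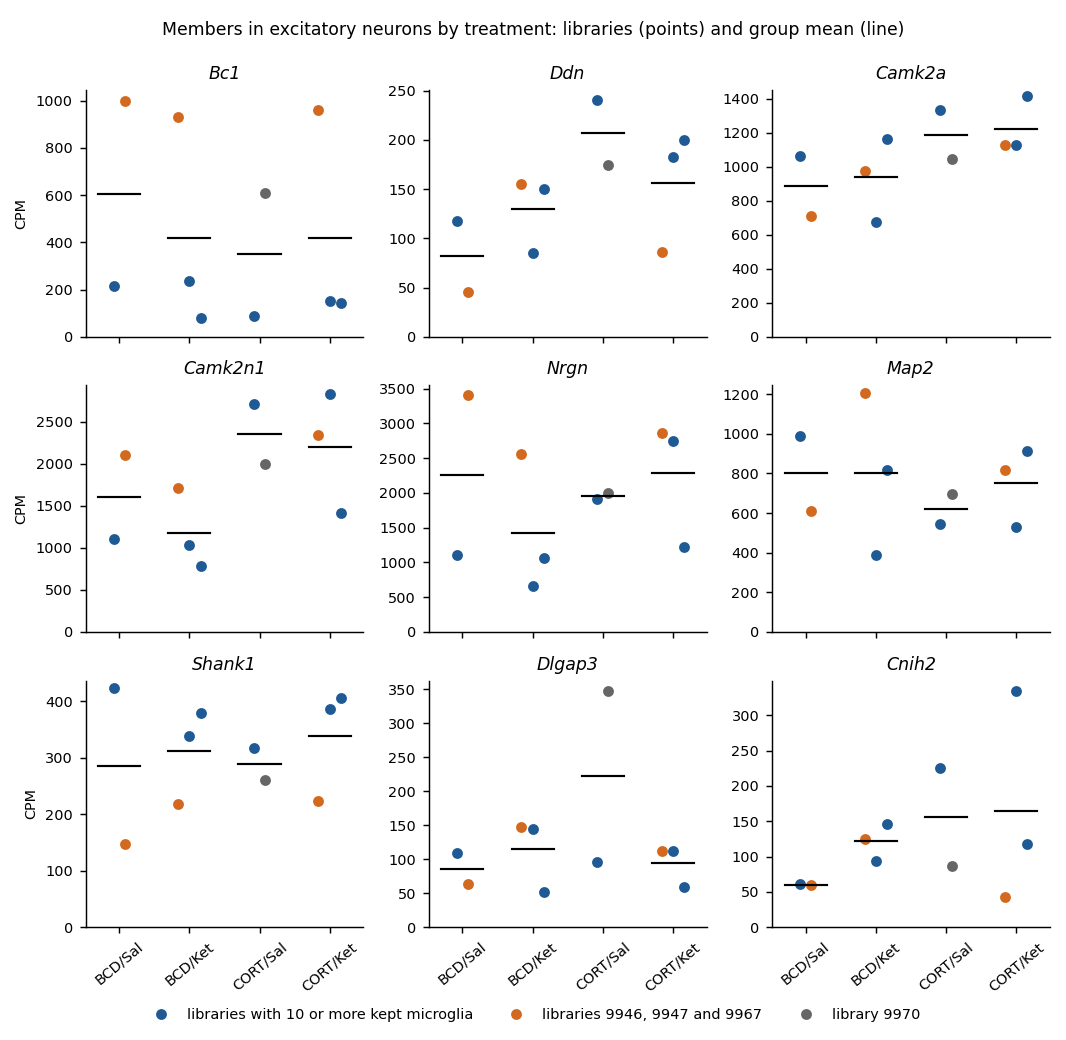
Level of each member (CPM) in excitatory neurons by treatment group, 1 point per library, with the group mean as a line. Blue points are libraries with at least 10 kept microglia, orange points 9946, 9947 and 9967, and the grey point 9970; for Bc1 the orange points, 1 each in BCD/Sal, BCD/Ket and CORT/Ket, lie at 932 to 999.

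High-mitochondrial barcodes showed no call either. In each of the 5 contrasts edgeR called 0 of 9 members and 0% of 11195 genes, with 0 members at an unadjusted p under 0.05, and DESeq2 called 0 members. The members' median log2 fold changes were −0.03, 0.52, 0.22, 0.32 and 0.25. The SE of Camk2a for CORT/Sal against BCD/Sal was 1.41 on the log2 scale, where BCD/Sal held 5570 and 660 CPM and CORT/Sal 4844 and 1632. The 1632, of mouse 9970, came from 22 barcodes with 4289 non-mitochondrial UMIs. Their choroid plexus markers summed to 116111 CPM, against 119 to 6786 in the other 9 libraries, and their part was not tested. In non-neuronal barcodes 8 members passed the filter (all but Dlgap3) and 0 were called. BCD/Ket against BCD/Sal had 9 genes called (0.0754% of 11930), CORT/Ket against BCD/Ket 2 (0.0168%) and the other 3 contrasts 0%, and with DESeq2 0 members were called.

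Non-neuronal Bc1 and Shank1 had unadjusted p-values under 0.05 in CORT/Sal against BCD/Sal, as did 398 of the 11930 genes. The Bc1 fold change was −1.86 ± 0.56 (log2, SE; edgeR unadjusted p = 0.0022, adjusted p = 1.00), with 136 and 61.6 CPM in BCD/Sal and 31.6 and 0 in CORT/Sal. That of Shank1 was −1.55 ± 0.61 (edgeR unadjusted p = 0.015, adjusted p = 1.00), with 61.4 and 0 CPM in BCD/Sal and 16.7 and 0 in CORT/Sal. The BCD/Sal level of Shank1 thus came from mouse 9901 alone. In BCD/Ket, without CORT, Bc1 and Shank1 were also lower than in BCD/Sal. The log2 fold changes were −1.22 ± 0.48 for Shank1 (SE; edgeR unadjusted p = 0.016) and −0.86 ± 0.42 for Bc1 (0.051). The difference of the ketamine effects was 1.87 ± 0.75 for Shank1 (edgeR unadjusted p = 0.018) and 1.78 ± 0.68 for Bc1 (0.013). None of these was called after adjustment. For CORT/Sal against BCD/Sal, Bc1 was called in endothelial cells alone (−3.24, edgeR adjusted p = 0.037), along with 5 other genes (0.0933% of 6428). There CORT/Sal held 10.4 and 0 CPM and BCD/Sal 114 and 63.8. The 0 of mouse 9970 came from 3192 UMIs, for which the exact Poisson interval (95%) reaches 1156 CPM, and the 63.8 of mouse 9947 was 2 UMIs. With a term for the libraries with under 10 microglia, chosen after seeing the data, Bc1 (−1.94, edgeR adjusted p = 0.014) and Camk2a (−2.03, adjusted p = 0.013) were among 38 genes called (0.319%). Non-neuronal Camk2a was 186 and 0 CPM in BCD/Sal, again from mouse 9901 alone, and 42.6 and 0 in CORT/Sal. Bc1 in the neurons of the same libraries was 81.3 and 596 in CORT/Sal and 210 and 779 in BCD/Sal, and the part of free RNA in the non-neuronal levels was not tested.

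The genes whose levels were most like those of the members, by Pearson's r of log levels over 62 sums of 11 classes in 9 libraries, are given as a description. The sums share libraries and depth. They also join neurons with non-neuronal classes, the contrast by which the members were chosen. Bc1 was closest to Napb (0.79), Ppp3ca (0.78) and Eef1a2 (0.78), which were the lowest leading values of the list. The nearest genes were Kcnj4 for Ddn (0.83), Rasgef1a for Camk2a (0.89), Cplx2 for Camk2n1 (0.85), Mal2 for Nrgn (0.88), Adgrb3 for Map2 (0.91), Snhg11 for Shank1 (0.92), Syt13 for Dlgap3 (0.90) and Sncb for Cnih2 (0.85).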

How the data were processed

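The authors aligned reads of 10x libraries with Cell Ranger (3.0.2 by the matrix header) to mm9, and deposited raw UMI counts per gene and barcode without normalization. Not all gene identifiers of the files occur in GENCODE M1 on that build, and which annotation was counted remains unknown. Seurat 3.1.1 is named in the submitters' processing notes. Groups were taken from the sample labels, which give BCD to the controls where the series text gives plain water. Members and lists were chosen with earlier results of these data known.

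Barcodes with at most 1 in 8 mitochondrial UMIs (the study's limit) and at least 200 genes were clustered in Python 3.11.15 with scanpy 1.11.5, anndata 0.12.19, leidenalg 0.10.2, scikit-learn 1.9.0, scipy 1.17.1, pandas 2.3.3 and numpy 2.4.6 (2000 variable genes, 30 components, 20 neighbours, Leiden resolution 0.8). Members and comparison lists were left out of the clustering. A cluster was named from marker genes, and no doublets were removed. Counts were summed per library and class and scaled to CPM, 1000000 non-mitochondrial UMIs, and log2 ratios used a pseudocount of 1 CPM. Tests were made with edgeR 4.0.16 (TMM, filterByExpr, robust quasi-likelihood, Benjamini-Hochberg adjusted p of 0.05) in R 4.3.3 on sums of at least 10 cells, with 4 groups in 1 fit, and with DESeq2 1.42.0 as the alternative. The code was also run on simulated counts. These had the same spread for every gene and no split between sets of libraries, so they do not show how the tests perform on these data. Fits used all genes. The SE given with an edgeR fold change is its size divided by the square root of the F statistic, since the fit reports none. Likeness used log levels with a pseudocount of 10 CPM in sums with at least 20000 UMIs. Figures were drawn with matplotlib 3.10.9. All 9 members, the genes of the comparison lists and the 3 genes most like each member could be named. Bc1 was placed on NCBIM37 by matching its RefSeq start, and the other members by Ensembl identifier. Alternatives were other normalizations, filters, cutoffs, clusterings, library sets and leaving out each library. Some genes of the lists are not reported here.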

Additional observations from a re-analysis of the deposited data

Results flagged for a closer look

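Ratios of the members were examined for a library far from the others by Dixon's test in 36 sets of up to 10 libraries. The ratios of library 9970 to the neurons of the others cover 9 libraries, so 9970 could not be marked there. These are the ratios and the library by which the members were chosen, so the values below describe them and support nothing, whatever the 1 in 20 sets that chance marks. Marked were 11 of the 36, all by mouse 9970 (CORT/Sal), whose neuronal, non-neuronal and high-mitochondrial sums held 11745, 5466 and 4289 UMIs. Several of these sums listed a member at 0, where the ratio depends on the pseudocount.

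For neurons against non-neuronal barcodes 9970 was the highest library for Bc1 (9.22 on the log2 scale), Nrgn (10.9) and Map2 (9.41), each listed at 0 in its non-neuronal barcodes. For high-mitochondrial barcodes against neurons it was the lowest for Bc1 (−1.35, from 1 UMI), Dlgap3 (−8.42) and Cnih2 (−6.43), both listed at 0 in its high-mitochondrial barcodes. For high-mitochondrial against non-neuronal barcodes it was the lowest for Camk2n1 (2.35), Dlgap3 (0) and Cnih2 (0), listed at 0 on both sides, and the highest for Nrgn (9.45) and Map2 (9.45).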

How the results depend on the processing

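No treatment contrast called a member in excitatory neurons or high-mitochondrial barcodes under any alternative run. In non-neuronal barcodes 2 members were called with a term for libraries with under 10 kept microglia, an alternative chosen after seeing the data, and 1 in endothelial cells alone, both in CORT/Sal against BCD/Sal. Leaving out 1 library at a time called no member in these 3 kinds of barcode (lowest 0, highest 0). The median log2 ratio of neurons to high-mitochondrial barcodes moved from −1.95 to −1.01 when levels were scaled to all UMIs, mitochondrial ones included.

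For excitatory against inhibitory neurons the fit with the library as a replicate block called 4 members and the fit with no replicate block called 3, as did DESeq2, and leaving out 1 library gave 3 to 4. Camk2a, Camk2n1 and Nrgn were called in all 19 alternatives and Bc1 in 12, with adjusted p between 0.00097 and 0.90 in edgeR or DESeq2. Ddn was called without the filter on low counts (0.88, edgeR adjusted p = 0.025) and Shank1 with members and lists kept in the clustering (0.71, edgeR adjusted p = 0.016). All called genes numbered 496, and 1012 without the filter, 190 with no replicate block and 328 in the libraries with at least 10 microglia, a set chosen after seeing the data. At most 5% mitochondrial UMIs, resolution 0.4 and the removal of striatal clusters at the resolution used left no inhibitory sums and were not run. With 2 libraries per saline group, and 1 of them 9970, depth and number of mice limit every CORT/Sal contrast.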
